A study of Homo sapiens with 9 samples.

Results

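The 36 genes described here encode the machinery of ER-associated degradation (ERAD) and were chosen by gene symbol from the recognition, ubiquitination and retrotranslocation steps of the pathway. All 36 symbols were found among the 61552 genes listed, and all 36 passed the filter on low read numbers that left 16571 genes for testing, DERL3 only through its treated libraries. Expression was measured by RNA-seq in MDA-MB-231 cells, a human triple-negative breast cancer (TNBC) cell line labelled wild type and grown in DMEM with serum. The cells received no 2-deoxy-D-glucose (2-DG, a glucose analogue that blocks glycolysis), 10 mM 2-DG or 20 mM 2-DG for 24 h. Each of the 3 groups had 3 libraries. The study used this contrast together with cells given L-lactate, which are not covered here, to find genes that respond to altered lactate levels. The labels do not say whether replicates came from separate cultures, so p-values measure only the spread between these libraries, which may be technical. A single cell line was used, and in bulk RNA fewer cells of a state and less RNA per cell cannot be told apart.

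ERAD removes misfolded proteins from the endoplasmic reticulum (ER). In the lumen, mannosidases trim the glycans of proteins that fail to fold, and lectins carry these proteins to ubiquitin ligases in the ER membrane, of which the SEL1L-SYVN1 (HRD1) complex is the best known. Derlins help form the route across the membrane, E2 enzymes supply ubiquitin, and the ATPase VCP with UFD1 and NPLOC4 pulls the substrate into the cytosol for the proteasome. Several ERAD genes are known targets of the unfolded protein response (UPR), the program that secretory cells, tumour cells among them, use when unfolded proteins build up in the ER.

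Whole reads could be recovered from the deposited FPKM values, and totals ran from 30974968 to 40843638 reads per library, with overlapping ranges in the 3 groups. The line's markers were present, with mean FPKM of 283 for VIM and 109 for AXL, while ESR1, PGR and CDH1 were at 0.0043, 0.0075 and 0.161. ERBB2 was detected at 6.83 FPKM. With 20 mM 2-DG ERBB2 and CDH1 fell by 0.54 and 0.35 in log2(FPKM + 1) (limma adjusted p = 0.000384 and 0.000207). CDH1 lies far below the added 1, which shrinks its change, and limma-voom on recovered reads put it at -2.36. Leukocyte, endothelial and hepatocyte markers stood at or near 0 (PTPRC 0.013, CDH5 0.0005 and ALB 0.0074), apart from PECAM1 at 1.29. The mitochondrial transcripts' share of FPKM was 25.7% to 27.4% in 8 libraries and 31.8% in 10 mM replicate 3. Libraries of 1 group differed by gene length. Across all tested genes the rank correlation between a gene's length and its deviation from the group mean was -0.30 in control replicate 1 and -0.36 in 10 mM replicate 2, against 0.30 in control replicate 2 and 0.37 in 10 mM replicate 1. The pattern was stronger among the 36 members, at -0.435 and 0.501 in control replicates 1 and 2. Among them it was 0.542 and -0.512 in 10 mM replicates 1 and 2, and 0.394 in 20 mM replicate 3. This length pattern is a description over genes that share a library, and its part in the results was not tested.

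Upstream sequence is shown for the ERAD genes that held a UPR element outside annotated exons. Whether such an element bears on a gene's change was not tested. RefSeq promoter windows (GRCh38.p14) were at hand for 29 of the 36 genes, and 3 elements were searched on both strands in the 250 bases before each start. These were ERSE (CCAAT, 9 further bases, CCACG), ERSE-II (ATTGG, 1 further base, CCACG) and UPRE (TGACGTGG). They overlap in letters, because CCACG also begins the reverse complement of UPRE. Of 35116 promoters 0.074% held ERSE, 0.0513% ERSE-II, 0.612% UPRE and 0.735% any of the 3. These shares count promoter windows, of which the 29 matched members had 32. Among the 29 members, HERPUD1 held ERSE-II at positions -117 to -107 on its own strand, UBE2J1 held UPRE at -231 to -224 on the opposite strand, VCP held UPRE at -189 to -182 on its own strand, and 0 held ERSE. The stretch around the VCP match overlaps an exon of VCP in GENCODE 29 and is not shown. The stretches below were upstream of the annotated exons, with the matched letters in capitals and the gene's own strand read 5′ to 3′. HERPUD1 is at chr16:56931942-56932046 on the plus strand and UBE2J1 at chr6:89352913-89352972 on the minus strand.
HERPUD1: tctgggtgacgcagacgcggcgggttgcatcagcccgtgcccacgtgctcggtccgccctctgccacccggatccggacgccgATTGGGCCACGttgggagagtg
UBE2J1: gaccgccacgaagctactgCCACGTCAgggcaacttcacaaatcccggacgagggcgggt
A match describes letters only. HERPUD1 and UBE2J1 rose with 2-DG and VCP did not pass the test at either dose, as given in the values that follow, and 26 of the matched members held none of the 3 elements in this window.

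At both doses more ERAD genes rose than fell. Fold changes throughout are differences of log2(FPKM + 1) from limma, fitted on all 9 libraries and adjusted by Benjamini-Hochberg over the 16571 genes, and a gene is said to have risen or fallen only at adjusted p under 0.05. With 10 mM 2-DG 14 of the 36 members rose, where 12.1% of all genes did, and 1 fell, where 17.5% of all genes did. With 20 mM 2-DG 16 rose against a background of 15.3%, and 1 fell against a background of 21.6%. The median log2 fold change of the members was 0.18 at 10 mM and 0.14 at 20 mM, beside -0.01 and -0.02 over all genes tested. Both comparisons share the control libraries. The 15 members past the threshold at 10 mM were also past it at 20 mM with the same sign, and DERL1 and RNF139 passed at 20 mM alone. The remaining 19 genes passed at neither dose. The counts include DERL3, which could only pass the filter where it is high, and with at least 10 reads required in every library, which drops it, 13 and 15 genes rose.

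**Figure D1:**
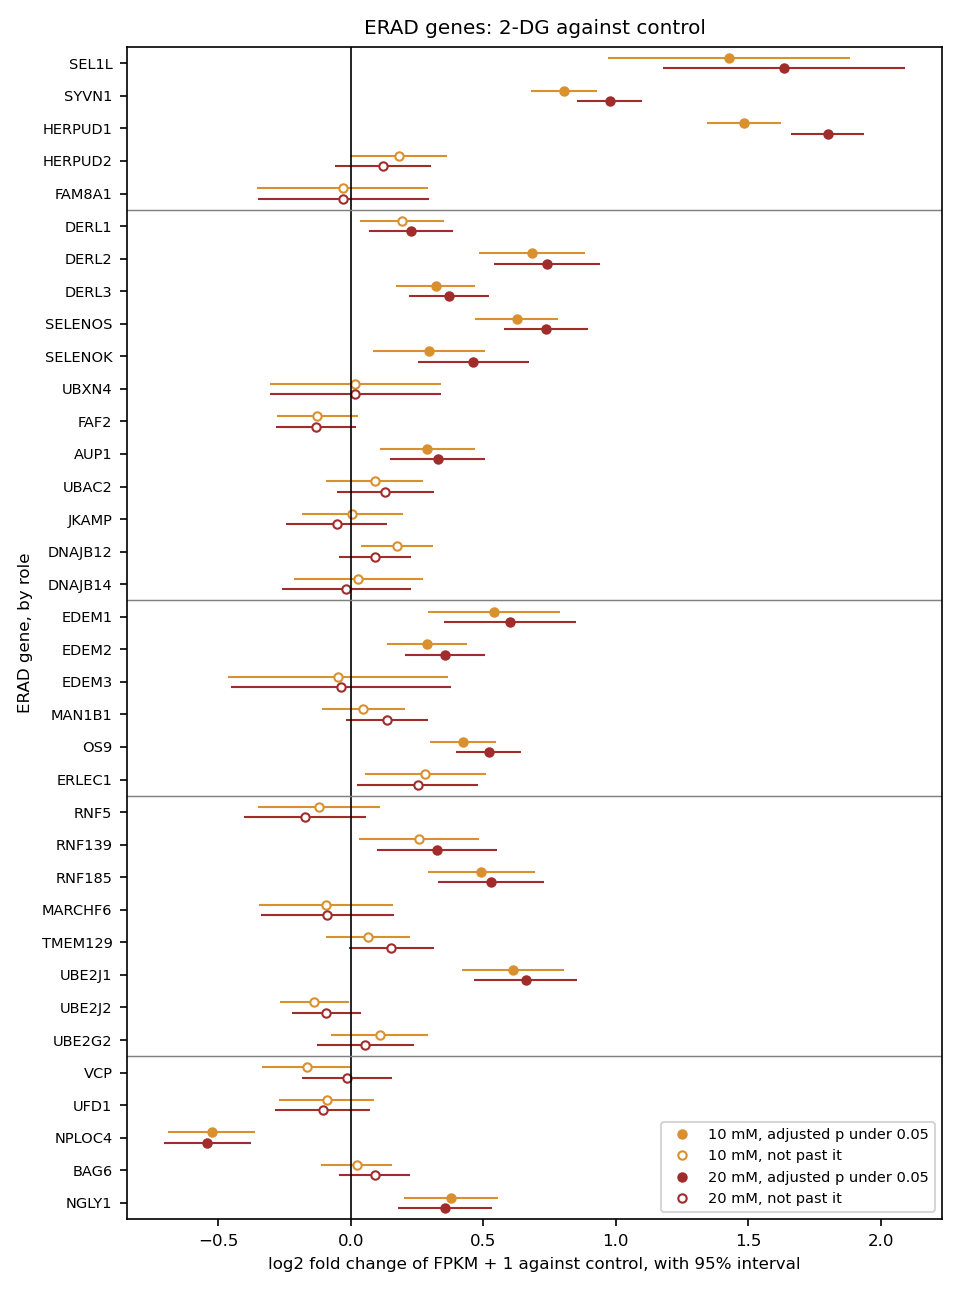
The log2 fold change of FPKM + 1 against control (x axis) is drawn for each of the 36 ERAD genes (y axis, grouped by role) at 10 mM (orange) and 20 mM 2-DG (red), with 95% intervals and filled points for adjusted p under 0.05. HERPUD1 and SEL1L lie farthest to the right, at 1.80 and 1.64 with 20 mM, and NPLOC4 is the 1 gene with filled points left of 0.

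The study called a differentially expressed gene (DEG) with DESeq2, at p under 0.05 and a log2 change beyond 1 in either direction. Whether that p was adjusted is not stated. Here the same cut-offs were applied to limma on FPKM + 1, with p before adjustment, so the calls are not the study's own. By these thresholds SEL1L and HERPUD1 were upregulated at both doses. These 2 of 36 members compare with 0.579% of all genes higher at 10 mM and 0.966% at 20 mM. No member was a downregulated DEG, where 1.16% of all genes were at 10 mM and 1.96% at 20 mM. The limma-voom count of members lower by these thresholds was likewise 0 at either dose. The higher count was 4 at 20 mM with limma-voom on the recovered reads, where SYVN1 (1.00) and DERL3 (3.34) joined. DERL3 passed the filter only through its treated libraries, so its entry is no test. The share of all genes in that fit is not given.

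Within the SYVN1 complex 3 of 5 genes rose at both doses, beside 12.1% of all genes at 10 mM and 15.3% at 20 mM. These included the members with the largest changes in FPKM + 1 of the 36. HERPUD1 (chr16:56932048-56944863, GENCODE 29 on GRCh38), a UPR-induced membrane protein that joins the ligase complex, measured 11.01, 10.37 and 9.34 FPKM in the control libraries. It measured 30.4, 30.6 and 30.1 FPKM at 10 mM, and 38.5, 38.7 and 37.0 FPKM at 20 mM. The 3 groups did not overlap and stood in the order of the dose. No gene passed the adjusted threshold between the doses, however. The share of all genes whose groups separate was not computed, here or for the members below. The log2 fold change of HERPUD1 was 1.48 ± 0.06 (SE) at 10 mM (limma adjusted p = 8.51e-07) and 1.80 ± 0.06 at 20 mM (limma adjusted p = 1.52e-07).

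SEL1L (chr14:81471549-81533861), the adaptor that hands lumenal substrates to the ligase, measured 6.33, 9.38 and 8.38 FPKM in control. Its values were 31.7, 16.6 and 23.2 FPKM at 10 mM and 24.9, 25.5 and 30.2 FPKM at 20 mM. All 6 treated libraries lay above all 3 control libraries, and the 10 mM group was widely spread, with an SD of 7.57 FPKM beside 2.92 at 20 mM. The change was 1.43 ± 0.20 at 10 mM (limma adjusted p = 0.000691) and 1.64 ± 0.20 at 20 mM (limma adjusted p = 0.000213). The order of its libraries followed the length pattern given above, with deviations from the group mean of -0.29 and 0.22 on the log2 scale in control replicates 1 and 2, and of 0.44 and -0.45 in 10 mM replicates 1 and 2. Without control replicate 1 and 10 mM replicate 2, and without control replicate 2 and 10 mM replicate 1, SEL1L stayed among the genes that rose.

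SYVN1 (chr11:65121780-65134533), the ubiquitin ligase itself, measured 26.8, 25.96 and 23.9 FPKM in control. It reached 46.8, 44.3 and 44.9 FPKM at 10 mM and 51.6, 51.2 and 50.8 FPKM at 20 mM. The groups again did not overlap. The log2 fold change was 0.80 ± 0.06 at 10 mM and 0.98 ± 0.06 at 20 mM (limma adjusted p = 9.19e-06 and 1.58e-06), so SYVN1 lay just under the DEG threshold at the higher dose on this scale. It lay just over it with limma-voom on reads (1.00), a pseudocount of 0.1 (1.00), median-ratio (1.03) or upper-quartile scaling (1.07) and without control replicate 1 (1.01). SYVN1 shares 398 bases of exon with the highly expressed FAU on the same strand and 356 with MRPL49 on the opposite strand. How the counting divided reads between them is not given in the sources used here.

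The other adaptors of the complex did not pass the test. HERPUD2, the paralogue of HERPUD1, measured 6.27, 6.797 and 6.36 FPKM in control, 8.15, 6.69 and 7.62 at 10 mM and 6.67, 7.39 and 7.35 at 20 mM. These groups overlapped, with log2 fold changes of 0.18 (95% interval -0.00 to 0.36) and 0.12 (-0.06 to 0.30). FAM8A1, a scaffold of the complex, had a log2 fold change of -0.03 at both doses, with a 95% interval of -0.35 to 0.29.

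**Figure D2:**
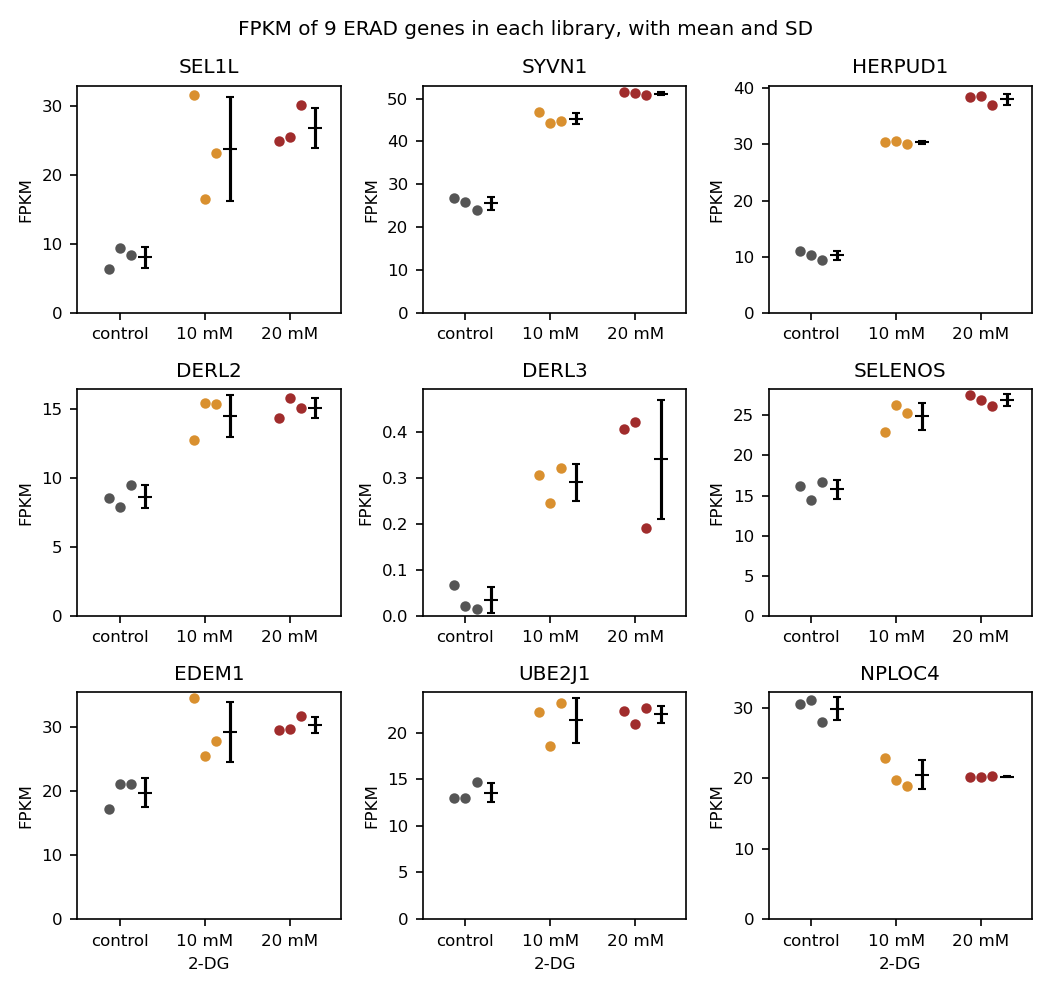
FPKM (y axis, from 0) is plotted for 9 ERAD genes in each control, 10 mM and 20 mM 2-DG library (points), with the group mean and SD (bars, n = 3). In 8 of the panels every treated point lies above every control point, and in NPLOC4 every treated point lies below. All 9 are members already called in these libraries, so the separation restates those calls, and its share among all genes was not computed. DERL3 passed the filter only through its treated libraries.

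Among the channel and membrane adaptors 5 of 12 genes rose at 10 mM and 6 of 12 at 20 mM, beside 12.1% and 15.3% of all genes. Both counts include DERL3, which could pass the filter only where it is high. The derlins differed from each other. DERL2, a derlin tied to the SYVN1 complex, measured 8.54, 7.89 and 9.54 FPKM in control, 12.8, 15.4 and 15.4 at 10 mM and 14.4, 15.8 and 15.1 at 20 mM. No treated library fell within the control range, and the log2 fold change was 0.68 ± 0.09 and 0.74 ± 0.09 (limma adjusted p = 0.000414 and 0.000179). DERL1 measured 9.53, 10.6 and 11.4 FPKM in control, 11.8, 12.2 and 12.3 at 10 mM and 12.6, 12.9 and 11.8 at 20 mM. Treated and control libraries were close but did not overlap, while the doses overlapped, with 0.19 ± 0.07 at 10 mM (limma adjusted p = 0.067) and 0.23 ± 0.07 at 20 mM (limma adjusted p = 0.0299). The call at 20 mM was lost in 7 alternative fits, among them those without control replicate 1 or 2 or without 20 mM replicate 1 or 2, where the adjusted p reached 0.107 at most.

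DERL3 (chr22:23834503-23839128), the third derlin and the member with the lowest level of the 36, stood at 0.0668, 0.0216 and 0.0154 FPKM in control, which is 9, 3 and 2 reads. It had 41, 38 and 42 reads at 10 mM and 48, 64 and 24 reads at 20 mM, or 0.191 to 0.424 FPKM across the treated libraries. Read numbers in the treated libraries were all above those in control. Its log2 fold change was 0.32 at 10 mM and 0.37 at 20 mM, a scale on which the pseudocount of 1 far exceeds its FPKM, and 3.34 at 20 mM with limma-voom on reads. Since DERL3 passed the filter only through the treated libraries, these values are a description with no test. The gene is uncertain, because 77.0% of its exon bases lie on the opposite strand of SMARCB1 (mean 6.5 FPKM), and whether counting used strand is not given in the sources used here.

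The VCP anchors of the ER membrane were uneven. SELENOS (VIMP), a selenoprotein that recruits VCP, measured 16.2, 14.5 and 16.6 FPKM in control, 23.0, 26.3 and 25.3 at 10 mM and 27.6, 26.9 and 26.1 at 20 mM. Its treated and control libraries were separate, with 0.63 ± 0.07 and 0.74 ± 0.07 (limma adjusted p = 0.000167 and 4.11e-05). SELENOK, a further membrane selenoprotein, rose by less, with 0.29 ± 0.09 at 10 mM (limma adjusted p = 0.0399) and 0.46 ± 0.09 at 20 mM (limma adjusted p = 0.00388). The call for SELENOK at 10 mM was lost in 12 alternative fits, those without control replicate 1 or 2, without 10 mM replicate 2 or 3 and without any 1 of the 20 mM libraries among them. UBXN4, with 0.02 at both doses, and FAF2, with -0.13 at both, are also membrane proteins that bind VCP, and they did not pass the test.

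AUP1, which anchors the E2 enzyme UBE2G2, was among the most abundant members and measured 63.7 to 70.6 FPKM in control, 72.9 to 91.4 at 10 mM and 81.5 to 86.7 at 20 mM. It rose by 0.29 ± 0.08 and 0.33 ± 0.08 (limma adjusted p = 0.023 and 0.00993), and its call at 10 mM was lost in 5 alternative fits, among them those without control replicate 2 or 3 or 10 mM replicate 3 (adjusted p up to 0.0782). Of its exon bases 18.3% lie opposite HTRA2. UBAC2, JKAMP and the membrane J proteins DNAJB12 and DNAJB14 had log2 fold changes from -0.05 to 0.17 over both doses and did not pass the test.

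The genes of lumenal recognition rose in 3 of 6 cases at both doses, beside 12.1% of all genes at 10 mM and 15.3% at 20 mM. EDEM1, which speeds the removal of misfolded glycoproteins and trims their mannose, measured 17.2, 21.0 and 21.0 FPKM in control, 34.5, 25.4 and 27.9 at 10 mM and 29.6, 29.7 and 31.8 at 20 mM. The treated libraries were all above control, with 0.54 ± 0.11 and 0.60 ± 0.11 (limma adjusted p = 0.00562 and 0.00235). EDEM2, which starts the trimming, rose by 0.29 ± 0.07 and 0.36 ± 0.07 (limma adjusted p = 0.0103 and 0.00254). EDEM3, its paralogue, measured 1.44, 2.21 and 2.30 FPKM in control, 2.62, 1.17 and 1.98 at 10 mM and 1.67, 1.77 and 2.23 at 20 mM. These groups overlapped fully, and the 95% interval of the log2 fold change at 20 mM was -0.45 to 0.38.

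OS9, a lectin that reads trimmed glycans, measured 33.0 to 34.6 FPKM in control, 42.9 to 47.6 at 10 mM and 47.8 to 49.7 at 20 mM. It rose by 0.42 ± 0.06 and 0.52 ± 0.06 (limma adjusted p = 0.000407 and 7.99e-05), and its 3 groups did not overlap. Between the doses OS9 did not pass (limma adjusted p = 0.825). ERLEC1 (XTP3-B), the related lectin, had 0.28 ± 0.10 and 0.25 ± 0.10 (limma adjusted p = 0.0649 and 0.0799). ERLEC1 did pass at both doses with limma-voom on reads. MAN1B1, the ER mannosidase I, had 0.05 and 0.14 and did not pass.

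Among the other ligases and E2 enzymes 2 of 8 genes rose at 10 mM and 3 of 8 at 20 mM. Such counts are too small to set apart from the 12.1% and 15.3% of all genes that rose. UBE2J1 (chr6:89326625-89352848), the membrane-anchored E2 enzyme that serves SYVN1, measured 13.02, 12.94 and 14.7 FPKM in control, 22.2, 18.6 and 23.2 at 10 mM and 22.4, 21.0 and 22.6 at 20 mM. The lowest treated library was above the highest control library, with 0.61 ± 0.09 and 0.66 ± 0.09 (limma adjusted p = 0.00065 and 0.000287). Its relative UBE2J2 measured 19.1, 16.8 and 18.4 FPKM in control, 16.2, 16.7 and 16.1 at 10 mM and 16.9, 17.0 and 16.8 at 20 mM. The 10 mM libraries of UBE2J2 lay just below control, and neither dose passed the test (limma adjusted p = 0.106 and 0.253).

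RNF185, a ligase of the ER membrane, measured 6.75, 6.70 and 5.95 FPKM in control, 9.86, 10.5 and 8.21 at 10 mM and 10.1, 9.77 and 9.44 at 20 mM. It rose by 0.49 ± 0.09 and 0.53 ± 0.09 (limma adjusted p = 0.00289 and 0.0014). RNF5, its close paralogue, measured 75.3, 65.2 and 81.2 FPKM in control, 58.4, 76.3 and 69.2 at 10 mM and 66.9, 65.5 and 63.2 at 20 mM. The control and treated ranges of RNF5 overlapped, with -0.12 at 10 mM and -0.17 at 20 mM (95% interval -0.40 to 0.06). Reads of RNF5 could also be shared with its processed copy RNF5P1, listed at 0.562 FPKM.

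RNF139 (TRC8), a ligase that also takes part in sterol regulation, reached 0.33 ± 0.10 at 20 mM (limma adjusted p = 0.0297) and 0.26 ± 0.10 at 10 mM (limma adjusted p = 0.083). The call at 20 mM was lost in 8 alternative fits, including those without control replicate 1 or 2 or any 1 of the 20 mM libraries, with adjusted p up to 0.103. MARCHF6, TMEM129 and UBE2G2 had log2 fold changes from -0.09 to 0.15 over both doses and did not pass.

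Of the 5 genes for extraction and cytosolic steps 1 rose and 1 fell at each dose, a count too small to set apart from the shares of all genes given above. NPLOC4 (chr17:81556887-81648465), a cofactor through which VCP binds ubiquitinated substrates, measured 30.6, 31.1 and 28.1 FPKM in control. It measured 22.9, 19.8 and 19.0 FPKM at 10 mM and 20.2, 20.2 and 20.3 FPKM at 20 mM. The treated libraries were all below control, and NPLOC4 fell by 0.52 on the log2 scale at 10 mM and by 0.54 at 20 mM (SE 0.07, limma adjusted p = 0.000604 and 0.000351). UFD1, its partner in the VCP cofactor, measured 7.09, 6.66 and 6.66 FPKM in control, 6.02, 7.18 and 5.84 at 10 mM and 6.22, 6.36 and 6.17 at 20 mM. Its log2 fold change was -0.09 and -0.11 and passed at neither dose (limma adjusted p = 0.435 and 0.335).

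VCP itself had -0.17 at 10 mM (95% interval -0.34 to 0.00) and -0.02 at 20 mM (-0.18 to 0.15), with 54.8 FPKM in 10 mM replicate 3, the library with the raised mitochondrial share, and 64.4 to 71.9 in the other libraries. BAG6, a holdase for extracted substrates, was the member with the highest mean. Its FPKM was 101, 101 and 93.0 in control, 105, 98.8 and 95.5 at 10 mM and 108, 102 and 104 at 20 mM, and its fold changes of 0.02 and 0.09 did not pass. NGLY1, the cytosolic enzyme that removes N-glycans from extracted proteins, rose by 0.38 ± 0.08 and 0.35 ± 0.08 (limma adjusted p = 0.00598 and 0.00633), from 3.75 to 4.33 FPKM in control to 5.16 to 5.95 over the treated libraries.

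**Figure D3:**
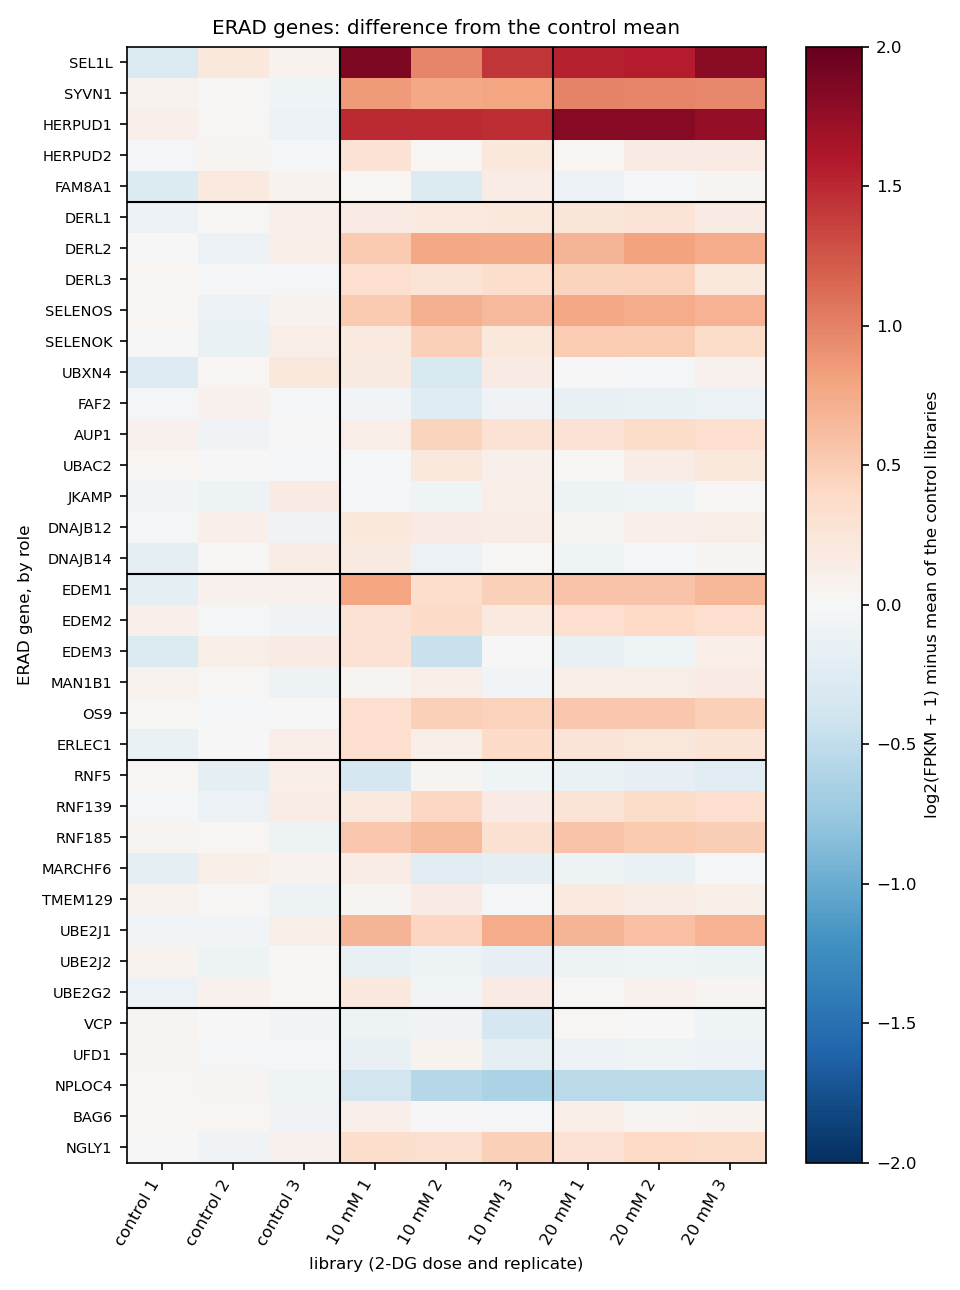
Each cell is the difference of log2(FPKM + 1) in 1 library (x axis) from the mean of the 3 control libraries for 1 ERAD gene (y axis, grouped by role), in red where higher and blue where lower. SEL1L and HERPUD1 are the deepest red in the treated columns, NPLOC4 is blue in all 6 treated columns, and EDEM3 and SEL1L are lowest of their group in 10 mM replicate 2.

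The members' levels spanned a wide range per length. After BAG6 (mean 101 FPKM over all libraries) came AUP1, RNF5 and VCP, whose order differed with treatment. In control RNF5 had a mean of 73.9 FPKM, VCP 69.3 and AUP1 66.8, with overlapping libraries, and at 20 mM AUP1 stood at 84.1, above VCP at 68.6 and RNF5 at 65.2. SYVN1 lay below NPLOC4 in control (25.6 against 29.9 FPKM) and above OS9 at 20 mM (51.2 against 49.0), without overlap in either case. At the low end, over all libraries, stood DERL3 at 0.222, DNAJB14 at 1.39, EDEM3 at 1.93 and FAM8A1 at 2.01 FPKM, the last 3 of which overlapped. Such an order depends on the gene lengths the authors used, which recovery from the FPKM values put at 16419 bases for ERLEC1 and 18576 for EDEM3.

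The ratio within pairs of related or partnered members was compared between the 6 treated and the 3 control libraries, with exact two-sided permutation tests adjusted over the 11 pairs. A ratio changed in 8 pairs, each with an exact p = 0.0238, which is the smallest that 6 against 3 libraries can give, and an adjusted p of 0.0327. The 8 include DERL3/DERL2, which is a description with no test, because DERL3 passed the filter only through its treated libraries. The pairs were chosen with earlier results known, and HERPUD1/HERPUD2, EDEM1/EDEM3, UBE2J1/UBE2J2, RNF5/RNF185 and UFD1/NPLOC4 each set a gene that passed its own test against one that did not. These tests therefore restate single-gene results and are no independent evidence, and the share of changed ratios among other gene pairs was not computed. Differences in mean log2 ratio, treated minus control, were 1.49 for HERPUD1/HERPUD2, 0.75 for UBE2J1/UBE2J2 and 0.61 for EDEM1/EDEM3, so the first-named paralogue gained on its relative. Among the pairs with a negative difference were RNF5/RNF185 at -0.66 and DERL1/DERL2 at -0.50.

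Partners within 1 complex shifted too. The SEL1L/SYVN1 log2 ratio moved from -1.57 ± 0.31 (SD, n = 3) in control to -0.93 ± 0.28 (n = 6) with 2-DG, yet 10 mM replicate 2, at -1.37, lay next to the highest control library at -1.38. UFD1/NPLOC4 moved by 0.44, from -1.99 ± 0.07 to -1.55 ± 0.13. DERL3/DERL2 moved by -0.37 with a pseudocount of 1. It moved by 0.85 with a pseudocount of 0.1 and by 2.48 on recovered reads scaled to library totals (log2). Its direction is thus set by the scale. EDEM1/EDEM2 (0.25, exact p = 0.143, but adjusted p = 0.0437 without 10 mM replicate 2), OS9/ERLEC1 (0.21, exact p = 0.0952) and DNAJB12/DNAJB14 (0.13, exact p = 0.333) did not pass.

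**Figure D4:**
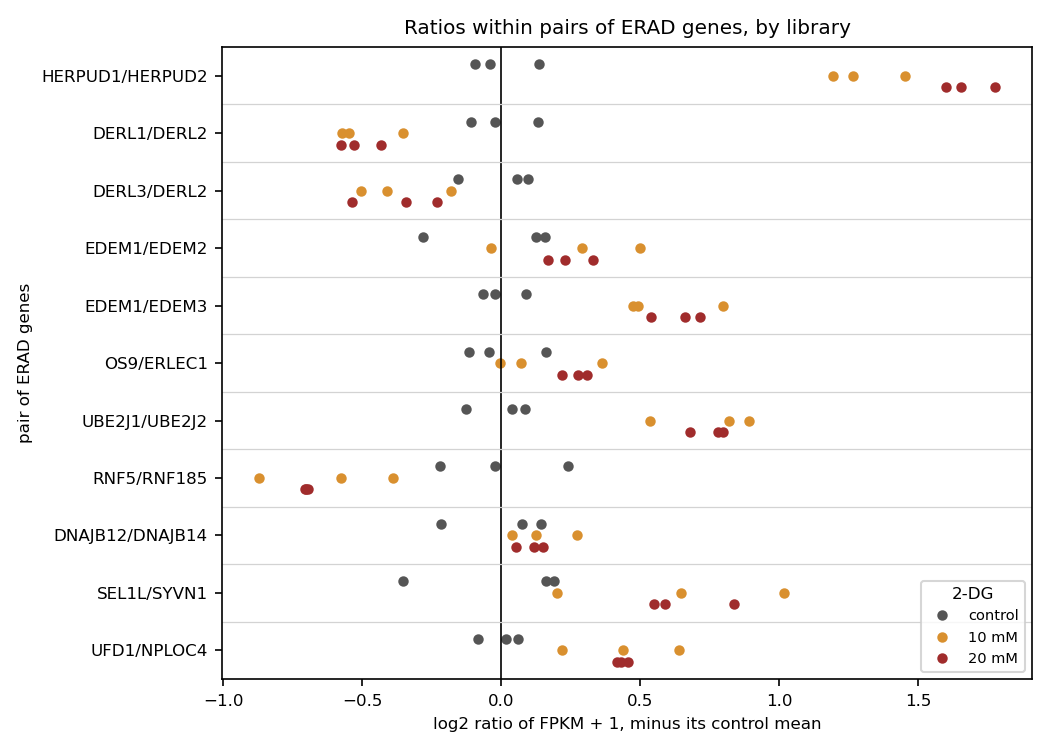
For 11 pairs of ERAD genes (y axis) the log2 ratio of FPKM + 1 in each library, minus the control mean, is drawn on the x axis for control (grey), 10 mM (orange) and 20 mM 2-DG (red). In 8 pairs no treated point falls within the control range, and HERPUD1/HERPUD2 lies farthest from 0, with a mean difference of 1.49. DERL3/DERL2 is among the 8, and DERL3 passed the filter only through its treated libraries.

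Between the doses no ERAD gene passed the adjusted threshold, and neither did any gene of the 16571, so the background was 0% in both directions. At an unadjusted p under 0.05 the members numbered 2 of 36 with limma on FPKM, a share no higher than that of all genes (1139 of 16571), and limma-voom on reads called 0 after adjustment. These were HERPUD1, with a difference of 0.31 ± 0.06 between 20 and 10 mM (limma adjusted p = 0.206), and SYVN1, with 0.17 ± 0.06 (limma adjusted p = 0.511). Both were higher in every 20 mM library than in every 10 mM library, as were OS9 and UBE2J2, while DNAJB12 was lower in every 20 mM library. The share of all genes with such a separation was not computed, so it is no evidence of a dose response. For SEL1L the difference was 0.21 with a 95% interval of -0.25 to 0.66. By the DEG thresholds 0 members were higher or lower, against 0.00603% and 0% of all genes.

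Of 58 further genes with a part in ERAD or its folding branch, 17 rose and 11 fell at 10 mM (12.1% and 17.5% of all genes), and 18 rose and 8 fell at 20 mM (15.3% and 21.6% of all genes). Among those that fell at 20 mM, and named after its value was seen, was the deubiquitinase USP13 (-0.63, but -1.46 with limma-voom on reads). The median log2 fold change of the 58 genes at 20 mM was 0.06. Those past the adjusted threshold with a log2 fold change over 1 at 20 mM were the lumenal chaperones HSPA5 (BiP, 2.38) and HSP90B1 (GRP94, 1.83), the BiP cofactors DNAJB9 (1.89) and SDF2L1 (1.76), and the lectin chaperones CALR (1.60) and CANX (1.13). Of 11 UPR regulators 6 rose and 1 fell at 10 mM, and 7 rose and 2 fell at 20 mM, beside the same shares of all genes. At 20 mM DDIT3 (CHOP) was at 1.47, XBP1 at 0.84, ATF4 at 0.65 and the sensor ERN1 (IRE1) at 0.60. This scale shrinks changes of genes with low FPKM, and limma-voom on reads gave 0.95 for ERN1 and 0.65 for ATF4. The 2 that fell at 20 mM, MBTPS1 and MBTPS2, are the proteases that cleave ATF6, a count too small to set apart from the 21.6% of all genes. In the promoter search 6 of 42 matched genes of the 58 held 1 of the 3 elements, ERSE in HSPA5, HSP90B1, CALR and CANX, ERSE-II in SDF2L1 and UPRE in DNAJC10.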

How the data were processed

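MDA-MB-231 cells in 3 groups (control, 10 mM and 20 mM 2-DG, 24 h, n = 3) were sequenced. The authors deposited 1 table of FPKM values per library, normalised to gene length and library total. The submitters' processing notes name the builds GRCh38 and hg38, and the aligner, counter and strand setting are not given in the sources used here. Whole reads were recovered for 32805 of 32806 genes above 0, as 99.81% to 99.87% of each library's reads. The 16571 genes reaching 10 reads (scaled to the median depth) in 3 libraries and 15 in total were tested on log2(FPKM + 1) with limma 3.58.1 (R 4.3.3, trend) over all 9 libraries. The DEG thresholds follow the study's methods. Limma-voom on recovered reads, other scalings, filters and pseudocounts, a replicate block and leaving out each library were alternatives, and the code was tested on simulated data. Members past adjusted p 0.05 by more than 0.58 on the log2 scale, members of changed pairs and the highest and lowest member have values per library, and the others ranges or fold changes. Of the further genes, those past the same p with a log2 fold change over 1 at 20 mM were named, and the listed UPR regulators and promoter matches were chosen after their values were seen. The members, lists and pairs were chosen with earlier results of these data known. Positions are from GENCODE 29.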

Additional observations from a re-analysis of the deposited data

How the results depend on the processing

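The count of members that rose stayed within 12 to 19 at 10 mM and 14 to 20 at 20 mM over the alternatives listed in the methods, highest with upper-quartile scaling. Leaving out each library in turn gave 12 to 15 and 14 to 16, and 2 to 3 upregulated DEGs at 20 mM. Upregulated DEGs at 20 mM numbered 4 with a pseudocount of 0.1 and 4 with limma-voom. Both counts include DERL3, which passed the filter only through its treated libraries. A threshold of 1.5-fold gave 6 at 10 mM and 7 at 20 mM. The shares of all genes that rose or fell were not computed at 1.5-fold or in the alternative fits. The counts in this section therefore show only how the member counts moved, and cannot be set against a background. In 2 fits chosen after seeing the data, leaving out control 1 and 10 mM 2 gave 14 and 16 that rose, and leaving out control 2 and 10 mM 1 gave 11 and 14, with 2 that fell at 20 mM since RNF5 joined NPLOC4, and DERL3 and EDEM2 lost their calls at 10 mM in the latter (adjusted p = 0.0506 and 0.0576 with limma). The cause was not tested. The DERL3/DERL2 ratio, which is no test, reversed to 0.85 with a pseudocount of 0.1 and to 2.48 on recovered reads scaled to library totals. EDEM1/EDEM2 passed without 10 mM replicate 2 (permutation adjusted p = 0.0437). Counting each member in each comparison under each setting, 2098 fits kept their side of the threshold, 25 gained it and 34 lost it. All gains and losses were in the comparisons against control. No member passed between the doses in any fit, which adds to the number that kept their side. No fold change past the threshold changed sign, but 33 that did not pass it did in at least 1 fit, among them those of EDEM3, FAM8A1 and UBXN4 at both doses and BAG6 at 10 mM. With the replicate number as a block 13 and 14 members rose. The correlation of same-numbered deviations ran from -0.406 to 0.293. Under different numbers it was 0.521 for control 1 with 10 mM 2 and 0.488 for control 2 with 10 mM 1. Whether libraries of different groups were paired was not tested. Pairs were not retested without a control library, because 6 against 2 libraries cannot go below an exact p of 0.0714. Few reads limit DERL3 alone, as other members had at least 283 reads in every library.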
